A study of Mus musculus with 3 samples.

Results

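Imprinted growth genes were followed in the cells of the Eed cKO cerebellum at P7. The set has 10 members, taken by symbol from the 16181 genes listed: H19, Igf2, Cdkn1c, Meg3, Dlk1, Peg3, Plagl1, Grb10, Mest and Ndn. All 10 were listed for each of the 3 mice. The libraries were made by Drop-seq, which captures the 3′ ends of transcripts of single cells in droplets and marks each captured molecule with a unique molecular identifier (UMI), from a papain-dissociated part of the cerebellum of each mouse. All 3 mice were Math1-Cre/Eed fl/fl, in which the Math1 (Atoh1) promoter drives Cre, so that Eed, a subunit of Polycomb repressive complex 2 (PRC2), is deleted in the Atoh1 lineage, which includes cerebellar granule neuron progenitors (CGNPs) and the cerebellar granule neurons (CGNs) they give rise to. No control mice were analysed here, so every comparison is between cell groups of the same 3 mice and none is between genotypes.

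Imprinted genes are transcribed mainly from the chromosome inherited from one parent. Several lie in clusters in which a coding gene of the paternal chromosome neighbours a noncoding RNA of the maternal chromosome, as Igf2 does H19 and Dlk1 does Meg3, and many act on growth of the embryo and are turned down after birth. H19, Cdkn1c and Meg3 are known as maternally expressed, and Igf2, Dlk1, Peg3, Plagl1, Mest and Ndn as paternally expressed, while Grb10 is maternally expressed in most tissues and paternally expressed in neurons and was kept apart. The mice were on a C57BL/6 background and these counts cannot show the parental allele of a UMI, so the terms name known classes of genes.

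After filtering, the 3 mice gave 918, 547 and 908 cells with 1003741, 540816 and 1536645 UMIs, and no barcode was shared between libraries. The 2373 cells formed 15 clusters, which were named from lists of cell type markers, with the members and lists of related genes held out of the clustering. Myoid-like cells numbered 70 (25, 19 and 26 in mice 1, 2 and 3), and their 18 muscle markers summed to 30006 to 46754 CPM over the mice, against 193 to 228 CPM in neural cells and 133 to 283 CPM in vascular cells. CPM, the unit of all levels below, is a gene's count after scaling the summed counts of a cell group in 1 mouse to 1000000. The 1736 neural cells are CGNP/CGN-like, interneuron-like and interneuron progenitor-like, and the 128 vascular cells are vascular fibroblast-like, pericyte-like and endothelial-like. A cluster of 170 cells with markers of both Purkinje cells and differentiating CGNs was left unnamed and belongs to neither. The targeted gene, Eed, had 22.0 ± 8.09 CPM (SD, n = 3 mice) in granule lineage cells and 81.2 ± 33.9 CPM in interneuron lineage cells, on 35 and 39 UMIs. The 3′ ends counted need not lie in the deleted part of Eed, so this level does not check the deletion.

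H19 is a noncoding RNA of embryonic tissues and developing muscle. In GRCm38 it lies on chromosome 7 from 142575529 to 142578143 on the minus strand, and its exon holds a microRNA whose mature forms are shown because they are cut from this transcript. They are from RefSeq (GRCm38.p6), 5′ to 3′, with the seed (bases 2 to 8) in capitals, and were not measured here.
miR-675-5p (chr7:142577112-142577133, minus strand): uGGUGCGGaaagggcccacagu
miR-675-3p (chr7:142577078-142577099, minus strand): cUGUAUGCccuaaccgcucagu

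Meg3, a noncoding RNA, and Dlk1, which encodes a transmembrane protein related to Notch ligands, share a domain and are known as genes of opposite parental chromosomes, so their starts are shown side by side. Meg3 lies on chromosome 12 from 109541001 to 109571726 on the plus strand, and Dlk1, 77.7 kb away, on chromosome 12 from 109452823 to 109463336 on the plus strand. RefSeq windows of the 250 bases before a start (GRCm38.p6) were found for 8 of the 10 members, 15 windows in all, and none were found for H19 and Cdkn1c. They were searched on both strands for TGACGTCA, the cAMP response element, TATAAA, the TATA box, and CAGCTG, an E-box form bound by the muscle factors Myod1 and Myog, which 1.55%, 12.4% and 13% of all 32851 such windows held. Capitals mark matches, and the Meg3 TATAAA matches, on opposite strands, overlap.
Meg3 (chr12:109540746-109540995, plus strand): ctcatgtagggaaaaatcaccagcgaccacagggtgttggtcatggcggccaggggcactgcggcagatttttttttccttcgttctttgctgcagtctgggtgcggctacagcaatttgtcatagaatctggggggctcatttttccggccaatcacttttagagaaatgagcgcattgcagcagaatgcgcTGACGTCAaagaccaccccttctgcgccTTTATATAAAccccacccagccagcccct
Dlk1 (chr12:109452573-109452822, plus strand): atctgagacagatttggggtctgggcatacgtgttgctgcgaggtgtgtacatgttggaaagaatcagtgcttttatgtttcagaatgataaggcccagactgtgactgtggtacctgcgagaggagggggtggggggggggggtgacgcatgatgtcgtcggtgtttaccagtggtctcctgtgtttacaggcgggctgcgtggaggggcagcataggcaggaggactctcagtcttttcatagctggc

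TGACGTCA began 57 bases before the Meg3 start, and the only other member window that held it was that of Peg3, 178 bases before the start. The Dlk1 window held none of the 3 motifs, and CAGCTG was found only in 1 Mest window, 135 bases before the start. UMIs mark 3′ ends, so the counts do not tell which start a transcript used.

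H19 was concentrated in the myoid-like cells. Its level there was 7019.6, 4162 and 3874 CPM in mice 1, 2 and 3, against 88.3, 141 and 49.1 CPM in neural and 89.5, 26.6 and 59.6 CPM in vascular cells. Every myoid-like value was above every other value. Of 860 H19 UMIs, 658 were in myoid-like cells, which held 4.46% of all UMIs in cells. Among the other 11 cell groups the means ran from 21.8 CPM in oligodendrocyte-like to 128 CPM in proliferating CGNP-like cells, and each group in that order overlapped with its neighbour.

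Cdkn1c encodes p57, an inhibitor of cyclin-dependent kinases, and lies on chromosome 7 from 143458339 to 143461050 on the minus strand, 880.2 kb from H19. It was the most abundant member in the myoid-like cells by UMI, with 11498, 15259.7 and 13539 CPM, against 235, 327 and 288 CPM in neural and 597, 398 and 179 CPM in vascular cells. The groups did not overlap. Among the other groups it ran from 504 ± 309.8 CPM (SD, n = 3 mice) in vascular fibroblast-like and 452 ± 30.5 CPM in interneuron-like cells to 88.2 ± 12.2 CPM in interneuron progenitor-like cells, and the interneuron-like values were all above the progenitor-like values.

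Igf2 encodes a secreted growth factor of the insulin family and lies on chromosome 7 from 142650766 to 142666816 on the minus strand, 72.6 kb from H19. It had high levels in 2 cell groups. Vascular fibroblast-like cells had 6512 ± 2157 CPM and myoid-like cells 6705, 4008 and 4149 CPM, and their values overlapped. The next group, pericyte-like cells, had 474 ± 346 CPM, while endothelial-like cells had 28.5 ± 27.4 CPM, so that 410 of the 429 vascular UMIs were in fibroblast-like cells. The 8 vascular fibroblast markers summed to 0 to 26.2 CPM in myoid-like cells, with Dcn, Lum, Col1a1, Slc6a13 and Foxc1 at 0, against 6729 to 14442 CPM in vascular cells. The 9 endothelial markers summed to 589 to 1130.3 CPM in myoid-like cells, with Cldn5, Pecam1, Cdh5, Flt1, Kdr, Ly6c1 and Slco1a4 at 0, against 4755 to 5252 CPM, and the 9 pericyte markers to 0 to 52.4 CPM, with 7 at 0.

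Meg3 had 2095, 1747 and 2720.3 CPM in myoid-like cells, above all 3 values of neural cells (259, 248 and 489 CPM) and of vascular cells (283, 398 and 1058 CPM). The unnamed cluster was at 4843, 987 and 3794 CPM, overlapping with the myoid-like cells. The means then fell through pericyte-like (1294), vascular fibroblast-like (809), interneuron-like (749) and differentiating CGNP/CGN-like cells (642 CPM), each of which overlapped with the one before, to 71.6 ± 63.8 CPM in endothelial-like cells.

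**Figure D1:**
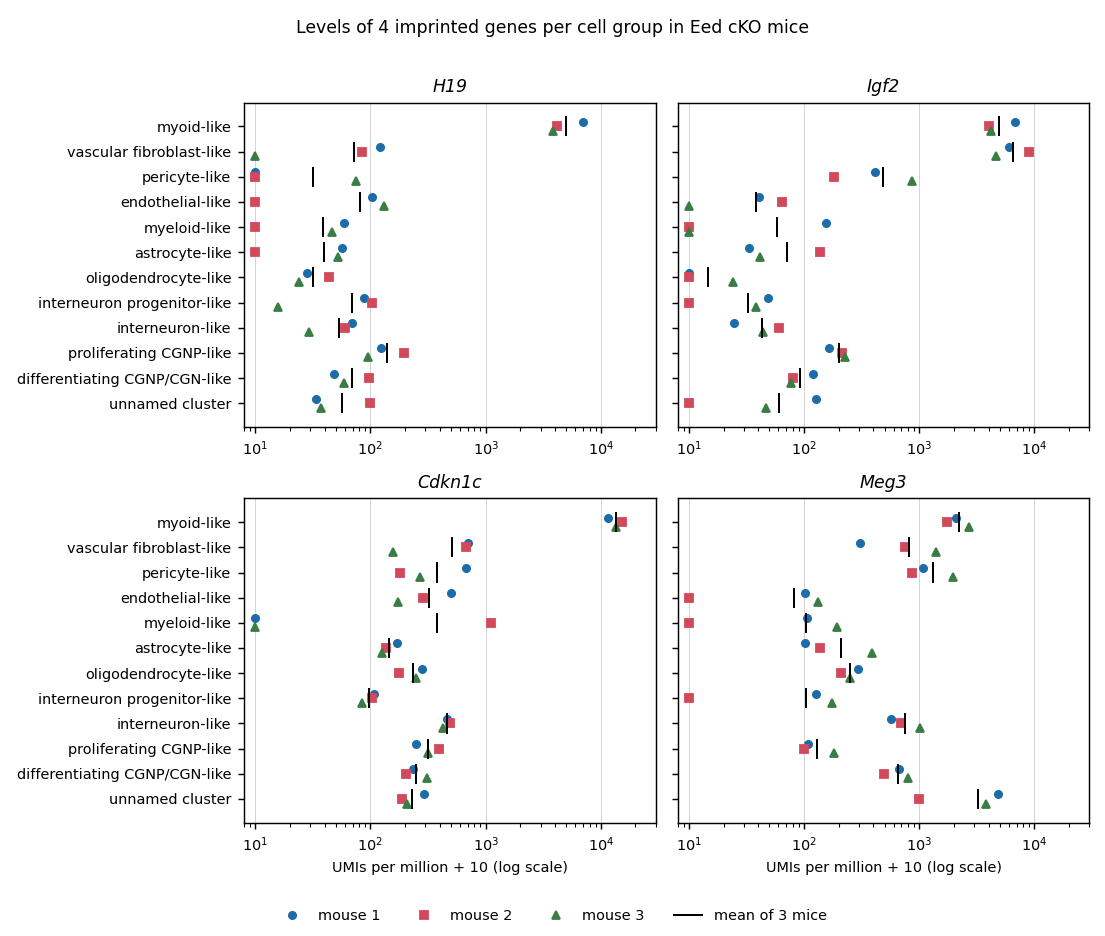
Levels of H19, Igf2, Cdkn1c and Meg3 in 12 cell groups, as CPM with 10 added, on a log scale; points are the 3 mice and the bar is their mean. Myoid-like cells stand apart for H19 (mean 5018) and Cdkn1c (mean 13432), and overlap with vascular fibroblast-like cells for Igf2 and with the unnamed cluster for Meg3.

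Dlk1 was highest in 3 cell groups. It had 419, 103 and 188 CPM in myoid-like cells, 399, 513 and 196 CPM in pericyte-like and 110.4, 148 and 147 CPM in vascular fibroblast-like cells. The myoid-like values overlapped with those of both other groups, and the pericyte-like values were all above the fibroblast-like values, while neural cells held 3 Dlk1 UMIs. Grb10, an adaptor that dampens insulin and IGF receptor signalling (chromosome 11 from 11930508 to 12038683 on the minus strand), had 969, 617 and 627 CPM in myoid-like cells, above the 233 ± 56.3 CPM of the next group, the vascular fibroblast-like cells. Of the pair, only Grb10 had its myoid-like values clear of every other group.

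The remaining members had other orders. Peg3, a zinc finger protein (chromosome 7 from 6703892 to 6730431 on the minus strand), had 183, 257 and 313 CPM in myoid-like cells and 207 ± 55.5 CPM in the unnamed cluster, which overlapped. Mest, of the alpha/beta hydrolase fold (chromosome 6 from 30723547 to 30748465 on the plus strand), had 105, 51.4 and 276 CPM in myoid-like cells, and its highest mean was 344 CPM in pericyte-like cells. Ndn encodes necdin, a growth suppressor of neurons (chromosome 7 from 62346569 to 62350262 on the plus strand), and was highest in interneuron-like cells at 438 ± 17.7 CPM and in the unnamed cluster at 432 ± 51.0 CPM. Plagl1, a zinc finger transcription factor (chromosome 10 from 13060504 to 13131694 on the plus strand), had no UMI among the 137413 of the myoid-like cells, which allows up to 21.8 CPM, and 64.3 ± 31.5 CPM in proliferating CGNP-like cells. Limits and intervals cover counting error only.

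**Figure D2:**
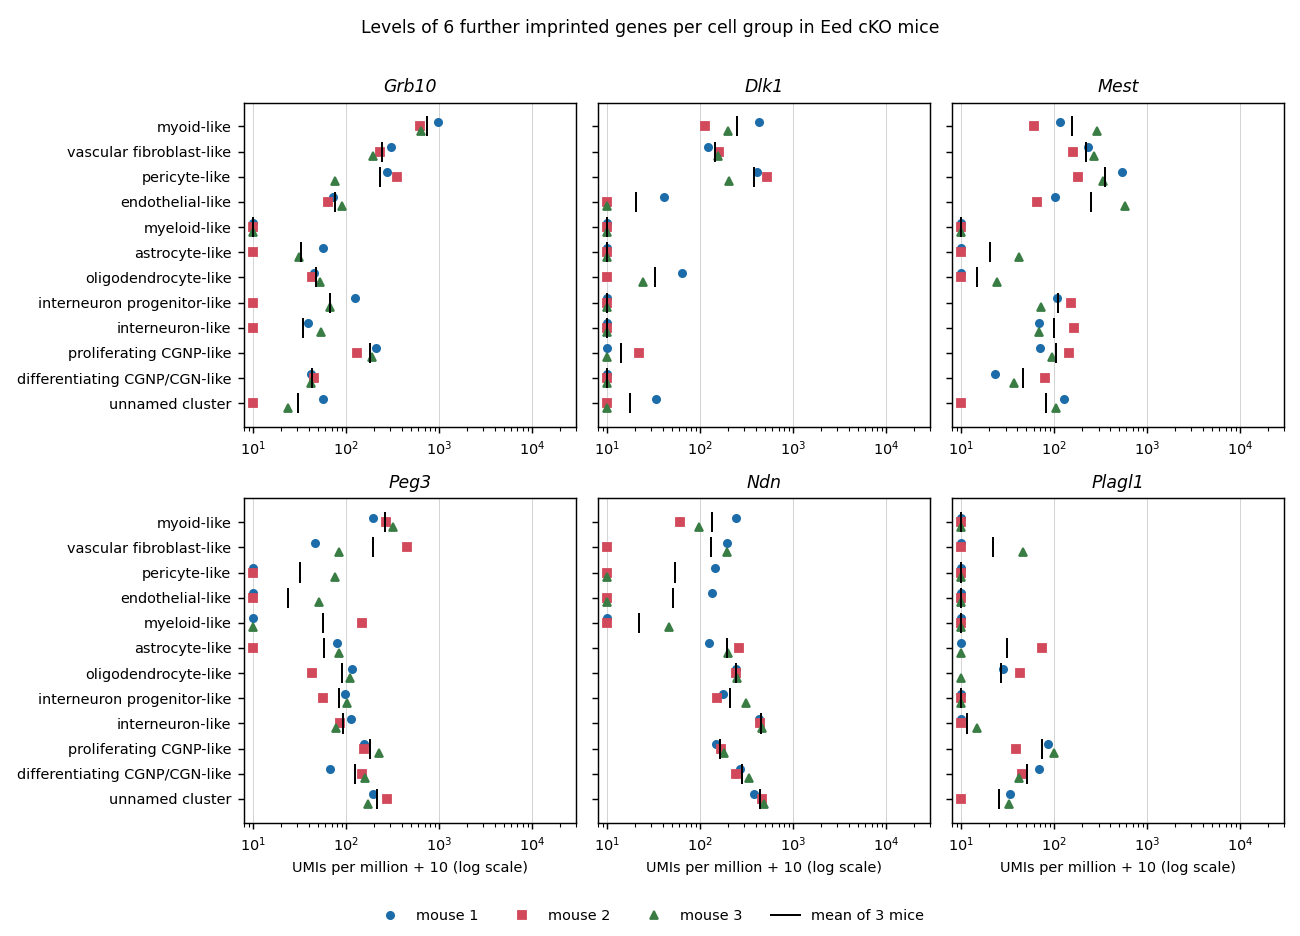
Levels of the other 6 members in 12 cell groups, as CPM with 10 added, on a log scale; points are the 3 mice and the bar is their mean. Grb10 is highest in myoid-like cells (mean 737), Ndn in interneuron-like cells (mean 438) and Plagl1 in proliferating CGNP-like cells (mean 64.3).

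The 4 abundant members were also followed in single cells. At least 1 UMI was found in 81.2% ± 2.56 of myoid-like cells per mouse for H19, 91.7% ± 11.2 for Igf2, 98.2% ± 3.04 for Cdkn1c and 75.1% ± 6.00 for Meg3, at a median of 1473.5 UMIs per cell. After thinning every cell to 500 UMIs, which left out no cell, these shares were 60.0% ± 18.9, 83.4% ± 8.40, 94.3% ± 2.11 and 56.4% ± 8.40. In myeloid-like cells, a type taken to lack these transcripts, they were 3.34% ± 2.90, 4.76% ± 8.25, 8.33% ± 14.4 and 10.2% ± 10.5 before thinning, at a median of 961 UMIs, and 0% ± 0, 0% ± 0, 8.33% ± 14.4 and 3.34% ± 2.90 after it. The myeloid-like Cdkn1c share rests on 2 cells of mouse 2 with 8 UMIs, so it does not serve as a background for that gene. A myoid-like cell held a median of 19.5 Cdkn1c UMIs (0 to 130), and 53 of 70 held at least 10, against 5 of 2303 other cells. All 4 transcripts were found together in 41 myoid-like cells (58.6%), in 0 of 128 vascular cells, which allows a share of up to 2.34% of cells with a UMI of all 4, and in 4 of 1736 neural cells. These counts were not thinned to 1 depth, and the limit is on detection at a median of 1111 UMIs per vascular cell, not on expression. Cells of one mouse are not replicates, and cells were not compared by a test.

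The myoid-like cells were compared with the neural cells by summing UMIs per mouse and cell group and testing 3 sums against 3 by the quasi-likelihood test of edgeR, and p-values were adjusted by the Benjamini-Hochberg method across every gene tested. A gene was called at an adjusted p under 0.05. Of the 9 members tested, 8 were higher in myoid-like cells, where 8.03% of 5106 genes were higher, and 0 were lower, where 12.5% were lower. At an unadjusted p under 0.05, 1 member (Ndn) was lower, and DESeq2 called 7 higher and 0 lower. The median log2 difference was 2.81 over these members, Dlk1 among them, and -0.16 over all genes tested. Genes entered the test if at least 3 of the 6 sums reached 40.1 CPM here, so a gene can enter through 1 group, where all 3 values reach that level and not all 3 of the other group do. Dlk1 entered through the myoid-like cells, while Plagl1, at 0 there, did not enter. Of the members that did not enter through 1 group, 7 of the 8 were called, all higher. The counts and the median over members are therefore a description of the genes tested. For a gene that entered through 1 group, levels and UMIs are given and nothing is read from its difference.

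H19 was higher by 5.81 ± 0.34 on the log2 scale (SE, adjusted p = 7.17e-21), Cdkn1c by 5.55 ± 0.30 (adjusted p = 2.44e-22) and Igf2 by 5.34 ± 0.30 (adjusted p = 2.52e-21), each in 3 of 3 mice. Grb10 was higher by 2.81 ± 0.30 (adjusted p = 5.46e-11) and Meg3 by 2.76 ± 0.28 (adjusted p = 1.45e-11). Dlk1 had 33 UMIs among 137413 in myoid-like and 3 among 2132851 in neural cells. The calls of H19, Cdkn1c, Igf2, Grb10 and Meg3 held under every alternative in which the gene was tested, and the Meg3 difference ran from 1.90 to 3.23 over them. Mest and Peg3 were called at smaller differences, 1.35 ± 0.44 (adjusted p = 0.0210) and 1.03 ± 0.34 (adjusted p = 0.0238). The Mest values overlapped and without mouse 3 the difference was -0.05 (adjusted p = 0.979), and the Peg3 call was lost without mouse 1, 2 or 3 (adjusted p = 0.0592, 0.0828 and 0.488). Neither was called without a filter on low counts, Mest also not by DESeq2, at a clustering resolution of 0.4 or at 1000 UMIs per cell, nor Peg3 against CGNP/CGN-like cells. Ndn differed by -0.83 ± 0.41 (adjusted p = 0.159), and by -1.59 without mouse 1 (adjusted p = 0.0323). Plagl1 was not tested and had 0 UMIs in myoid-like cells, against 54.3, 26.2 and 42.0 CPM in neural cells (40.8 ± 14.1). Of its neural UMIs, 91 were in the granule lineage and 1 in the interneuron lineage, so no lower level is shown against the latter.

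The 1056 barcodes with fewer than 500 UMIs were not counted as cells, and whether they hold RNA from outside cells or small or damaged cells was not tested. They had 112 ± 52.6 CPM of H19, 311 ± 71.0 CPM of Igf2, 556 ± 54.3 CPM of Cdkn1c and 1639 ± 895 CPM of Meg3, each above the neural mean of 92.7, 123, 283 and 332 CPM. The part of RNA from outside cells in the neural levels was not tested.

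Against vascular cells, 6 members could be tested, and 5 were higher in myoid-like cells, where 16.7% of 1163 genes were higher. None was lower by edgeR (0 of 6, also 0 at an unadjusted p under 0.05 and 0 by DESeq2), where 23.2% of genes were lower, and DESeq2 called 4 higher. The filter stood at 190.1 CPM here, and H19, Cdkn1c and Grb10 entered through the myoid-like cells. Of the members that did not, 2 of the 3 were called. H19 had 658 UMIs in myoid-like and 11 in vascular cells, and Grb10 had 179, 159 and 119 CPM in vascular cells, all below its myoid-like values. Cdkn1c had 1816 UMIs in myoid-like and 67 in vascular cells. The values of these 3 genes did not overlap between the groups. Entry through the myoid-like cells favours such a separation, so nothing is read from it. Meg3 was higher by 1.75 ± 0.34 (SE, adjusted p = 2.96e-05), a call that held under every alternative that tested the gene. Igf2 was higher by 0.78 ± 0.31 (adjusted p = 0.0387), with vascular values of 2492, 3241 and 2087 CPM, all below the myoid-like values. Its call was lost without mouse 1 (0.44, adjusted p = 0.362) and without mouse 3 (0.77, adjusted p = 0.0587), and with DESeq2, its size factors or no filter on low counts. With vascular fibroblast-like cells alone on the other side, the Igf2 difference was -0.59 (adjusted p = 0.205). Mest differed by -0.55 ± 0.47 (adjusted p = 0.390). The medians were 1.93 over the members tested and 0.04 over all genes. The first includes H19, Cdkn1c and Grb10, which entered through the myoid-like cells, so nothing is read from it.

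**Figure D3:**
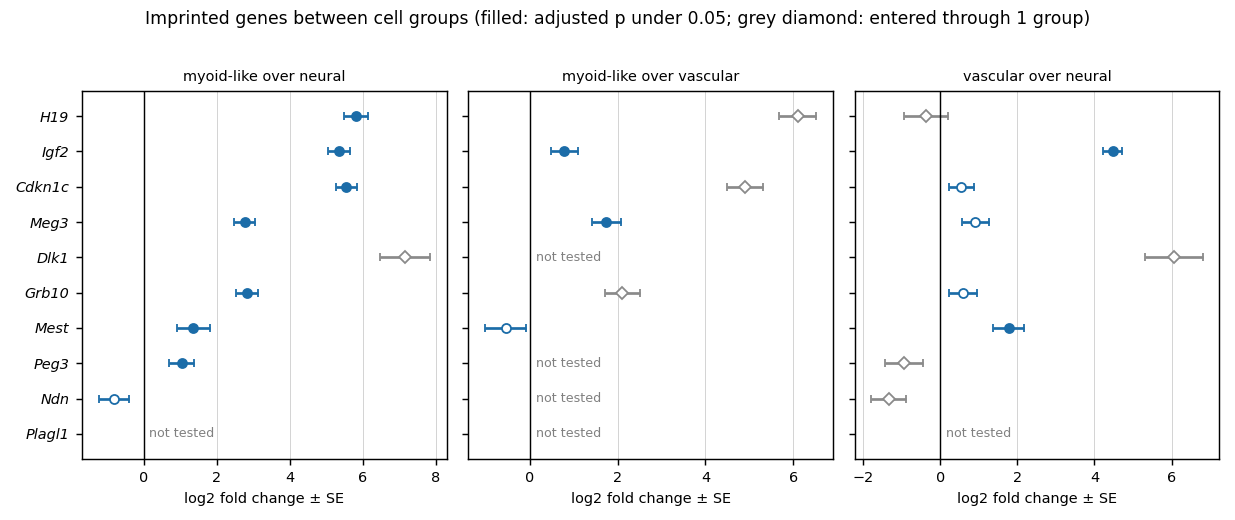
Log2 differences of the members between myoid-like and neural cells, myoid-like and vascular cells, and vascular and neural cells, with bars of 1 SE; filled points passed an adjusted p of 0.05. Grey diamonds are genes that entered the test through 1 group, shown without a call. Igf2 lies far to the right against neural cells for the myoid-like (5.34) and the vascular cells (4.47, but -1.90 at 1000 UMIs per cell), and less far for myoid-like against vascular cells (0.78, but -0.59 against vascular fibroblast-like cells).

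Vascular against neural cells gave a different pattern, with 3 of 9 members higher, where 16.0% of 5335 genes were higher, and 1 lower, where 13.4% were lower. Igf2 was higher by 4.47 ± 0.25 (SE, adjusted p = 4.54e-13). Dlk1 is counted among the 3 but entered the test through the vascular cells, with 19 UMIs against 3 in neural cells. With endothelial-like and pericyte-like cells alone, the Igf2 difference was 0.60 (adjusted p = 0.371), and with at least 1000 UMIs per cell, where the vascular cells were 33 endothelial-like cells, it turned to -1.90 (adjusted p = 0.106). Mest was higher by 1.78 ± 0.40 (adjusted p = 0.00120), with overlapping values, and its call was lost without mouse 1 (adjusted p = 0.0508) or 3 (adjusted p = 0.198). Ndn, the 1 lower member, entered through the neural cells, as did H19 and Peg3, at a filter of 41.1 CPM, and had 149, 0 and 74.5 CPM in vascular and 193, 205 and 289.6 CPM in neural cells. Of the members that did not enter through 1 group, 2 of the 5 were called. Cdkn1c differed by 0.55 ± 0.31 (adjusted p = 0.208), not past the threshold. Without 1 mouse its difference ran from -0.15 to 0.95, and it passed without mouse 3 (0.95, adjusted p = 0.0310). Meg3 differed by 0.91 ± 0.35 (adjusted p = 0.0533), and with the mouse as a block by 0.81 (adjusted p = 0.00283), past the threshold, but by -1.42 at 1000 UMIs per cell (adjusted p = 0.0936). Blood markers summed to 134 to 23829 CPM in vascular cells over the mice and 710.3 to 1971 CPM in neural cells, and astrocyte markers to 4091 to 6051 and 446 to 858 CPM, and their part in these differences was not tested.

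The balance of known maternally and paternally expressed members was described by UMIs, with no test. H19, Cdkn1c and Meg3 made up 72.9%, 82.6% and 80.1% of the UMIs of the 9 members without Grb10 in the myoid-like cells of mice 1, 2 and 3, and 24.7%, 18.5% and 32.2% in vascular cells. All 3 myoid-like shares were above all 3 vascular shares. The vascular cell types differed, with 16.7% ± 4.92 (SD, n = 3 mice) in fibroblast-like, 56.7% ± 4.07 in pericyte-like and 60.8% ± 18.0 in endothelial-like cells. The share was 53.7% ± 1.97 in neural cells, 74.9% ± 21.6 in myeloid-like cells and 77.7% ± 12.3 in the unnamed cluster. In barcodes under 500 UMIs it was 74.4% ± 8.28. Cdkn1c made up most of this share in the myoid-like cells, and Meg3 in the unnamed cluster.

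Of the UMIs of the neighbours H19 and Igf2, H19 held 51.1%, 50.9% and 48.3% in the myoid-like cells of the 3 mice, 658 to 665 UMIs. In vascular cells it held 3.47%, 0.813% and 2.78%, on 11 against 429 UMIs. The myoid-like and vascular fibroblast-like cells thus had overlapping Igf2 levels beside H19 levels of 5018 and 61.5 CPM. Granule lineage cells held 39.6%, 48.7% and 30.9%.

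**Figure D4:**
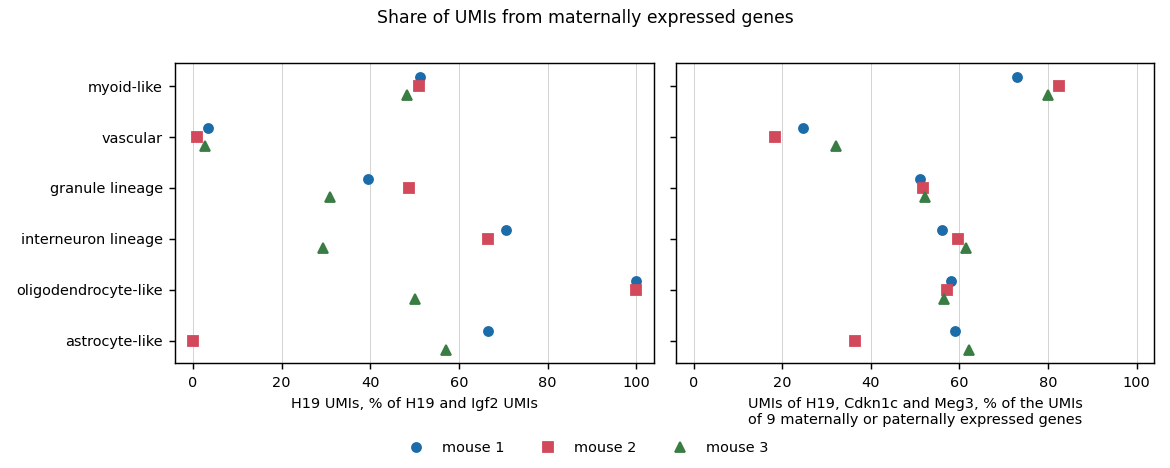
Left, H19 as a percent of the UMIs of H19 and Igf2; right, H19, Cdkn1c and Meg3 as a percent of the UMIs of 9 members, in 6 cell groups, with points for the 3 mice. The left shares of oligodendrocyte-like cells rest on 3 H19 and 1 Igf2 UMIs. Myoid-like cells have the higher share in both panels against vascular cells (78.5% ± 4.99 against 25.1% ± 6.89 on the right). Not drawn on the right are pericyte-like (56.7% ± 4.07) and endothelial-like cells (60.8% ± 18.0) alone.

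Other noncoding RNAs of the Dlk1-Meg3 domain were also found in the myoid-like cells. Rian, 32.2 kb from Meg3, had 183, 308 and 251 CPM there, on 33 UMIs, against 6.81 ± 2.58 CPM in neural and 28.7 ± 1.88 CPM in vascular cells. Its myoid-like values were all above the neural and vascular values. Mirg, 158.0 kb from Meg3, had 85.1 ± 28.4 CPM on 12 UMIs, against 8.97 ± 6.76 CPM in neural cells. Both entered the test against neural cells through the myoid-like cells. The unnamed cluster, where Meg3 was as high, held 12 Rian and 2 Mirg UMIs. Igf2os, which overlaps Igf2 on the other strand and was looked at after its values were seen, had 14 UMIs in myoid-like cells and 0 in neural and vascular cells. Whether counting used the strand is not given in the sources used here, so reads of Igf2 and Igf2os, and of Mest and its antisense neighbour Copg2, may not be told apart.

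Within the neural cells, the granule lineage, where Cre acts, was set against the interneuron lineage. Of 9 members, 4 were higher, where 3.71% of 6500 genes were higher, and 1 was lower, where 3.89% were lower. DESeq2 called 2 higher and 0 lower, as did edgeR without the proliferating cluster led by the haemoglobin gene Hbb-bs, an alternative added after seeing the data. Igf2 had 143, 162 and 161 CPM against 29.1, 32.8 and 31.4 CPM, with no overlap, and was higher by 2.34 ± 0.31 (SE, adjusted p = 2.77e-05). The Igf2 call held under every alternative that tested the gene. Plagl1 had 91 UMIs against 1, and Grb10 156, 94.8 and 126 CPM against 81.6, 0 and 49.7 CPM. Both are counted among the 4 but entered the test through the granule lineage, as did H19, at a filter of 27.0 CPM. Of the members that did not, 3 of the 6 were called. Lineage, Eed deletion and developmental stage cannot be told apart in this comparison.

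Peg3 (0.93 ± 0.28, SE, adjusted p = 0.0443) was also higher and Ndn (-0.75 ± 0.22, adjusted p = 0.0411) lower in the granule lineage. Both calls were lost without any 1 mouse: without mouse 1, 2 or 3 the adjusted p was 0.0754, 0.171 and 0.449 for Peg3 and 0.154, 0.182 and 0.228 for Ndn. Both were also lost with DESeq2, at 1000 UMIs per cell and without the cluster led by Hbb-bs, Peg3 with no genes held out of the clustering and Ndn without a filter. Meg3 (-0.65 ± 0.27, adjusted p = 0.185) did not pass, but did with the mouse as a block (-0.56, adjusted p = 0.00356). The block moved the calls over all genes from 241 higher and 253 lower to 451 and 444. Cdkn1c, at 287 ± 47.2 and 282 ± 55.7 CPM, differed by 0.10 ± 0.22 (adjusted p = 0.886).

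Differentiating against proliferating granule lineage cells gave 2 of 9 members higher, where 15.6% of 4985 genes were higher, and 4 lower, where 14.3% were lower. Meg3 rose from 97.7, 90.0 and 172 CPM in proliferating to 651, 482 and 793 CPM in differentiating cells (2.43 ± 0.27, SE, adjusted p = 1.08e-06), a call that held under every alternative that tested it. The Meg3 values did not overlap. Grb10 had 203, 123 and 182 CPM in proliferating and 32.2, 35.0 and 31.5 CPM in differentiating cells. Grb10, H19 and Mest are counted among the 4 but entered the test through the proliferating cells, at a filter of 42.9 CPM. Of the members that did not, 3 of the 6 were called, Meg3, Ndn and Igf2. Ndn was higher by 0.86 ± 0.23 (adjusted p = 0.00762), a call lost without mouse 1 (adjusted p = 0.0729) or 3 (adjusted p = 0.0618). Igf2 was lower (-1.21 ± 0.28, adjusted p = 0.00266), a call lost without mouse 3 (adjusted p = 0.0526), at a clustering resolution of 1.2 (adjusted p = 0.390) and with no genes held out of the clustering (adjusted p = 0.0887). Without the upper limit on UMIs and genes per cell the Igf2 difference turned to 0.06 (adjusted p = 0.923). H19 had 115, 184 and 85.9 CPM in proliferating and 38.7, 87.6 and 49.5 CPM in differentiating cells and Mest 61.1, 135 and 85.9 and 12.9, 70.0 and 27.0 CPM, with overlap in both.

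The largest proliferating cluster, of 406 cells, was the one led by Hbb-bs. Without it, Igf2 (-0.55, adjusted p = 0.214) did not pass. With the mouse as a block, Peg3 passed (-0.59, adjusted p = 0.0405, against -0.53, adjusted p = 0.211, without it).

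**Figure D5:**
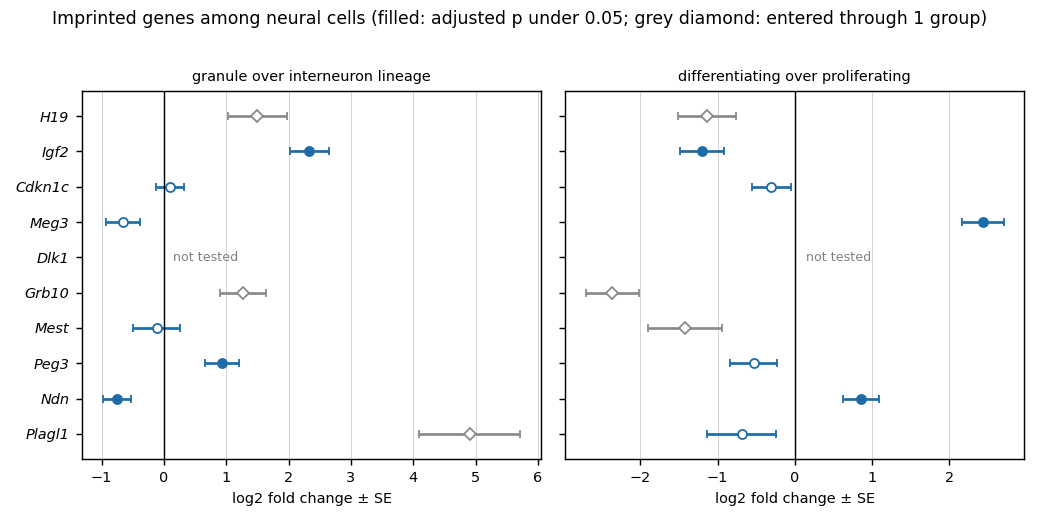
Log2 differences of the members between granule and interneuron lineage cells and between differentiating and proliferating granule lineage cells, with bars of 1 SE; filled points passed an adjusted p of 0.05. Grey diamonds are genes that entered the test through 1 group, shown without a call. Igf2 (2.34) lies to the right in the first and Meg3 (2.43) in the second, and Igf2 (-1.21) to the left in the second, though at 0.06 without the upper limit on UMIs and genes per cell.

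Related genes were read from 4 lists, whose counts stand beside the shares of all genes tested: 8.03% higher and 12.5% lower between myoid-like and neural cells, 16.7% higher and 23.2% lower between myoid-like and vascular cells, 16.0% higher and 13.4% lower between vascular and neural cells, 3.71% higher and 3.89% lower between the lineages and 15.6% higher and 14.3% lower between differentiating and proliferating cells. No difference is printed for a gene that entered through 1 group. Of 27 other imprinted genes listed, 12 were tested between myoid-like and neural cells: Zdbf2 (2.20) and Gnas (1.09) were higher, as were Rian, Mirg and Igf2r, which entered through the myoid-like cells, and Nnat (-2.62) lower. Against vascular cells 4 were tested, with Zdbf2 higher, entering through the myoid-like cells, and Nnat lower, entering through the vascular cells. Between vascular and neural cells 10 were tested, with Igf2r, entering through the vascular cells, and Sgce higher and Nnat and, entering through the neural cells, Snrpn lower, between the lineages 13, with Zdbf2, entering through the granule lineage, higher and Ppp1r9a and Snrpn lower, and between differentiating and proliferating cells 9, with Inpp5f, entering through the differentiating cells, and Nnat, Snrpn and Ube3a higher.

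Of 14 genes of the IGF pathway, 7 were tested between myoid-like and neural cells, and 4 were higher: the RNA-binding Igf2bp1, Igf2r, the receptor that clears Igf2, and the binding proteins Igfbp4 and Igfbp7, all of which entered through the myoid-like cells. Against vascular cells both genes tested, Igfbp2 and Igfbp7, were lower and entered through the vascular cells. Between vascular and neural cells 4 of 6 were higher and Igfbp5 lower, and of the 4, Igf2r, Igfbp4 and Igfbp7 entered through the vascular cells. In the granule against the interneuron lineage 5 were tested, with Igf2bp1 and Igfbp2, both entering through the granule lineage, higher and Igfbp5 (-1.29) lower, and from proliferating to differentiating cells Igfbp2 was higher and Igfbp5 and Igf2bp1, the latter entering through the proliferating cells, lower, of 4.

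Of 6 other inhibitors of cyclin-dependent kinases, Cdkn1a, which encodes p21, was higher in myoid-like than in neural cells (4.35 ± 0.28, SE, adjusted p = 1.02e-18) and Cdkn1b, which encodes p27, lower (-1.48 ± 0.41, adjusted p = 0.00533), of 5 tested. Cdkn1a was the 1 gene tested against vascular cells and was higher, entering through the myoid-like cells, and Cdkn2a was lower in vascular than in neural cells, of 5, entering through the neural cells. Cdkn1a and Cdkn2a, which both entered through the granule lineage, were higher in the granule than in the interneuron lineage and lower in differentiating than in proliferating cells (-1.86 and -1.17), while Cdkn1c was called in neither. Of 11 PRC2 genes, Ezh2 was lower in myoid-like than in neural cells (-1.52 ± 0.34, adjusted p = 6.46e-04), the only call among 6. Against vascular cells 3 were tested and edgeR called 0, with 1 at an unadjusted p under 0.05. Ezh2 and Rbbp4 were lower in vascular than in neural cells, Eed, entering through the interneuron lineage, was the only call of 8 between the lineages, and Ezh2, Rbbp7 and Suz12 were lower in differentiating cells.

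By Pearson correlation of log2(CPM + 20) over the 12 cell groups, the genes most like H19 among 4373 were Tnnt2, Sln and Myh3 (r = 0.971, 0.968 and 0.968), and those most like Cdkn1c were Acta1, Tnnc1 and Klhl41 (r = 0.955, 0.946 and 0.933), which encode proteins of striated muscle. Igf2 was most like Hexim1 and Nupr1 (r = 0.859 and 0.857), and Meg3 most like Sec23a (r = 0.886). These describe 12 points that share libraries and depth. For H19 and Cdkn1c the myoid-like point stands far above the others, so any gene confined to myoid-like cells scores high. Tnnt2, Myh3 and Tnnc1 are also among the markers that named that group.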

How the data were processed

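Drop-seq libraries of 3 Eed cKO mice at P7 were analysed. Each deposited file holds the authors' counts of UMIs per gene and barcode, not normalised; per the labels, reads were aligned with STAR to mm10, whose version, counter and strand setting are not given in the sources used here. Barcodes with at least 500 UMIs, at least 200 genes, at most 4 SD above the median and at most 10% mitochondrial UMIs were kept, as in the study's methods. No doublet caller was run; the upper limit was the only step against doublets. Cells were clustered with Seurat 5.3.0 and sctransform 0.4.2 (3000 variable genes, 15 components, resolution 0.8), leaving out 67 listed genes. The rule naming clusters was set in an earlier session that had seen clusters, and the members and lists were chosen with earlier results of these data known.

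UMIs were summed per mouse and cell group and tested with edgeR 4.0.16 in R 4.3.3 (TMM, filterByExpr, quasi-likelihood); alternatives used DESeq2 1.42.0, other scalings, filters and cell groups. Scripts were tested on simulated data. Named genes were the members, called genes of the lists, Eed, and the genes most like H19, Igf2, Cdkn1c and Meg3; Igf2os and Copg2, which overlap or adjoin members, and Hbb-bs, which led a cluster, were added after values were seen. Groups of one mouse come from the same animal, so mice pair the sums: deviations from group means correlated at 0.096 to 0.373 across genes within mice. Depth was 919.5, 857 and 1408 UMIs per cell (median). Sequences are from RefSeq, loci from the GENCODE annotation of GRCm38.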

Additional observations from a re-analysis of the deposited data

Results flagged for a closer look

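The unnamed cluster of 170 cells, which entered comparisons only as an alternative, had levels of 3 members above those of the summed neural cells of each mouse. These members were picked by that rule. The share of all genes that meet it was not computed, so nothing is read from their number. Meg3 had 4843, 987 and 3794 CPM there in mice 1, 2 and 3 (mean 3208), against 259, 248 and 489 CPM in neural cells. Ndn had 374, 449 and 472 CPM (mean 432) against 193, 205 and 289.6 CPM, and Peg3 had 187, 269 and 163 CPM (mean 207) against 115, 133 and 147 CPM. This does not hold against each neural cell type: interneuron-like cells had 426, 429.8 and 458 CPM of Ndn and proliferating CGNP-like cells 147, 147 and 217 CPM of Peg3, which overlapped with the unnamed cluster. Mouse 2 gave only 10 of these cells. No test was run on these differences, and groups of 3 mice were too small to look for outlying mice.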

How the results depend on the processing

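Of 639 member differences recomputed under alternatives, 542 kept their direction and side of the threshold, 59 lost and 20 gained the threshold, and 18 changed sign, members that entered a test through 1 group included. In myoid-like against neural cells, 1 member was lower without a filter on low counts and with the interneuron lineage as the neural cells, and 0 to 1 without 1 mouse; Mest ran from -0.0485 to 1.90 without 1 mouse. Igf2 was -0.590 in myoid-like against vascular fibroblast-like cells.

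In vascular against neural cells, 1 member was higher at 1000 UMIs per cell, against the interneuron lineage and with endothelial-like and pericyte-like cells alone. There, 3 were lower without a filter, 2 at 1000 UMIs and with endothelial-like and pericyte-like cells, 0 against CGNP/CGN-like cells and with fibroblast-like cells alone, and 0 to 1 without 1 mouse. Signs changed for H19 (-0.845 to 0.182 without 1 mouse, 0.0524 without the cluster led by Hbb-bs), Cdkn1c (-0.146 to 0.946 without 1 mouse), Igf2, Meg3 and Grb10 at 1000 UMIs (-1.90, -1.42 and -0.813), Meg3 (-0.00344) with the unnamed cluster among the neural cells and Grb10 (-0.112) with endothelial-like and pericyte-like cells.

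In the granule against the interneuron lineage, 2 members were higher with DESeq2 and without the cluster led by Hbb-bs, and 1 to 2 without 1 mouse. Lower members numbered 0 without a filter, with DESeq2, at 1000 UMIs, without that cluster and without any 1 mouse, and 2 with the replicate block, at resolution 0.4 and without an upper limit. Cdkn1c was -0.620 without an upper limit, -0.0111 with no genes held out and -0.0799 without that cluster, and Mest -0.373 to 0.163 without 1 mouse, 0.190 at resolution 0.4 and 0.475 at 1000 UMIs. In differentiating against proliferating cells, 1 to 2 members were higher and 2 to 3 lower without 1 mouse; 2 were lower at resolution 1.2, at 1000 UMIs, with no genes held out and without that cluster, and 1 without an upper limit, where Igf2 was 0.0562 and Cdkn1c 0.173. The cells compared also changed. Without an upper limit no cluster was named interneuron progenitor-like, and the interneuron lineage held 334 cells, against 539. At resolution 0.4 no differentiating cluster formed, so differentiating against proliferating cells was not run. The granule lineage then held 844 cells, against 1197. These types were missing from the neural cells too. The cause of the changes in the differences was not tested. The replicate block (mouse) changed the calls of Meg3 and Peg3 given above, brought H19 past the threshold between the lineages (1.30), where it entered through the granule lineage, and changed no other member's call.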
